A study of Caenorhabditis elegans with 2 samples.

Results

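The regions described here are the autosomal promoter regions of a CEH-22 ChIP-seq experiment in whole late embryos of Caenorhabditis elegans. A region of the pooled relaxed peak list was a member if it lay on an autosome and its summit fell between 1000 bp upstream and 200 bp downstream of the annotated 5' end of a protein-coding gene. This gave 3916 of the 19644 pooled regions on build ce11, of which 15948 were autosomal. The pooled list was deposited as peaks and background together, so a region in it need not be a bound site. The same rule gave 5974 of the 30000 regions called in replicate 1 and 5781 of the 30000 called in replicate 2. A stricter list, thresholded for reproducibility by the authors, held 285 peaks, 1.45% of the pooled regions. It included 84 of the promoter regions, or 2.15% of them.

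All samples formed 1 group of 2 biological replicates, with no contrast of conditions. The animals were late embryos of mixed sex of the strain OP389, genotype unc-119(tm4063) III with the transgene wgIs389, whose CEH-22 bears GFP and FLAG at its C-terminus. Per the labels both replicates came from 1 donor line, chromatin was sonicated, and the antibody is named only as ceh-22. The labels do not say whether the antibody recognised the tag, and the control library was not analysed here. Whole embryos mix all tissues, so the cells in which a region was bound cannot be told apart, nor can binding by the transgene's product be told from binding by the endogenous protein.

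CEH-22 belongs to the NK-2 class of homeodomain proteins, which bind DNA and regulate transcription. It is expressed in pharyngeal muscle, the muscle of the feeding organ, where it activates genes such as the myosin heavy chain gene myo-2. Factors of this class prefer sites with the core CAAGTG. Nematode promoters are compact, and neighbouring genes are often transcribed away from each other out of a shared upstream interval, a divergent pair. Many nematode messages are trans-spliced, so an annotated 5' end can mark the splice site and not the start of transcription.

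The DNA under the strongest promoter regions is shown first, since its composition recurs in the results below. The windows reach 50 bp to each side of the summit of the 10 strongest members, leaving out those that overlap an annotated exon and those on 1 chromosome. They were read from the RefSeq WBcel235 genome, the assembly also called ce11, 5' to 3' in the direction of the nearest gene. Capitals mark matches on either strand to 3 words, which are CCCGCCC, the word CTCCGCC and the repeat CTCTCTC.
atx-2 (chrIII:10461265-10461365, plus strand): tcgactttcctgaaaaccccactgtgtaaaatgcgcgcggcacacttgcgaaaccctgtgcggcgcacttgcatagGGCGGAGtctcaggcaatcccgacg
tasp-1 (chrIII:10759193-10759293, plus strand): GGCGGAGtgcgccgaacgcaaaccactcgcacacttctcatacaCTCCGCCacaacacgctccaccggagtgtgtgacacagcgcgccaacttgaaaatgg
sor-1 (chrIII:8417689-8417789, plus strand): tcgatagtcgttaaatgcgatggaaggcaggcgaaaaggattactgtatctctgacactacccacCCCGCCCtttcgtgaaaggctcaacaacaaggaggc
mig-38 (chrIV:11593552-11593652, plus strand): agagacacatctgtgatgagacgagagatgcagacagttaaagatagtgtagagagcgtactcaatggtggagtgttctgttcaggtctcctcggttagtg
rpl-3 (chrIII:3867493-3867593, plus strand): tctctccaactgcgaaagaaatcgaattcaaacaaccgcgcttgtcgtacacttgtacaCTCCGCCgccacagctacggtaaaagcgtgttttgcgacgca
rpl-35 (chrIII:7854631-7854731, plus strand): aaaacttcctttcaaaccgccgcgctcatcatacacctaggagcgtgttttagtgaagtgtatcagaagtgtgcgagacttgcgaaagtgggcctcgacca
phg-1 (chrII:10136861-10136961, plus strand): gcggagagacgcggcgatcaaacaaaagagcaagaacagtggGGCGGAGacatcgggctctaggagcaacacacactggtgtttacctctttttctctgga
hil-7 (chrIV:6646181-6646281, plus strand): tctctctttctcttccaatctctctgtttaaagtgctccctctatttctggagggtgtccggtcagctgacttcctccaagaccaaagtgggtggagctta
B0495.9 (chrII:7708718-7708818, minus strand): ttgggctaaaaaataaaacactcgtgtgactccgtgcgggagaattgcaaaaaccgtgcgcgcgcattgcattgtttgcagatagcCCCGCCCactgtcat
K04H4.5 (chrIII:9358567-9358667, plus strand): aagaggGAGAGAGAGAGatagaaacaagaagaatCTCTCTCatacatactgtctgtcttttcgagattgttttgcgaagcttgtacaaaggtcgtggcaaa
Of these 10 windows, 7 carried at least 1 of the words. CTCCGCC and CTCTCTC were chosen after the sequences had been seen, so this count only describes the windows printed. In longer windows of 201 bp, CCCGCCC was in 1.41% of the promoter regions below the threshold, CTCCGCC in 3.91% and CTCTCTC in 7.05%. Those of atx-2, tasp-1, rpl-3 and phg-1 held CTCCGCC, those of sor-1 and B0495.9 held CCCGCCC, and that of K04H4.5 held runs of CT repeats. The windows were rich in GC, with 58.4% at atx-2 and 59.4% at tasp-1 at the top and 40.6% at K04H4.5 at the bottom.

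Few of the strong promoter windows held the 7-letter sites counted here for CEH-22's own class. The shorter core CAAGTG was not counted. Read on the opposite strand as CACTTG, it stands unmarked in the atx-2 and rpl-3 windows printed above. An NK-2 site, TCAAGTG or TTAAGTG on either strand, lay within 100 bp of the summit of 5 of the 84 thresholded promoter peaks. All 5 read TCAAGTG, here in capitals with 11 bases to each side, 5' to 3' on the strand that carries the motif.
K04H4.5 (chrIII:9358688-9358716, minus strand): tgtgtacttttTCAAGTGgacgacaagtg
ceh-22 (chrV:10671947-10671975, minus strand): gctaacaataaTCAAGTGtagtgctcgaa
C49H3.6 (chrIV:7903587-7903615, minus strand): gagaaagggatTCAAGTGtgtaacttcgt
ncx-2 (chrV:5302792-5302820, plus strand): gaggagcaagtTCAAGTGgtgcccccggg
mtrr-1 (chrII:9285014-9285042, minus strand): ttttttctatgTCAAGTGctatcaaaagt
The site at ceh-22 was centred 9 bp from the summit and that at ncx-2 (a sodium and calcium exchanger gene) at 15 bp. Those at C49H3.6, mtrr-1 and K04H4.5 were centred at 50, 61 and 85 bp.

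Across all members, signal was close to that of the remaining autosomal regions, and the difference lay at the top of the list. The signal value is the authors' score per region on a scale not stated, and is compared only within a list. Its median was 12.1 over the 3916 promoter regions and 12.0 over the 12032 other autosomal regions. In replicate 1 the medians were 3.87 and 3.81, and in replicate 2 they were 8.36 and 8.32. The thresholded share of 2.15% at promoter regions (95% Wilson interval 1.74 to 2.65) stood beside 1.01% at other autosomal regions (0.85 to 1.21). Such intervals cover counting error over regions only, since read depth is unknown. Within the thresholded list the median was 40.6 at the 84 promoter peaks (range 32.4 to 154) and 38.4 at the 122 other autosomal peaks (32.2 to 214).

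The share of promoter regions was higher near the top of the ranking than below it. Of the autosomal regions among the 142 strongest pooled regions, 44.7% were promoter regions (95% Wilson interval 35 to 54.7). The share was 37.5% at ranks 143 to 285, 34.7% at ranks 286 to 500 and 29.1% at ranks 501 to 1000. From rank 1001 on it lay between 23.9% and 24.9%, beside 24.6% over the whole list. Replicate 1 alone had the same order, with 41.2% and 39.3% in the first 2 ranges and 32.5% at ranks 501 to 1000. Replicate 2 alone had 43.1% in the first range and 25.7% in the second, so there the higher share was seen in the first 142 regions.

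**Figure D1:**
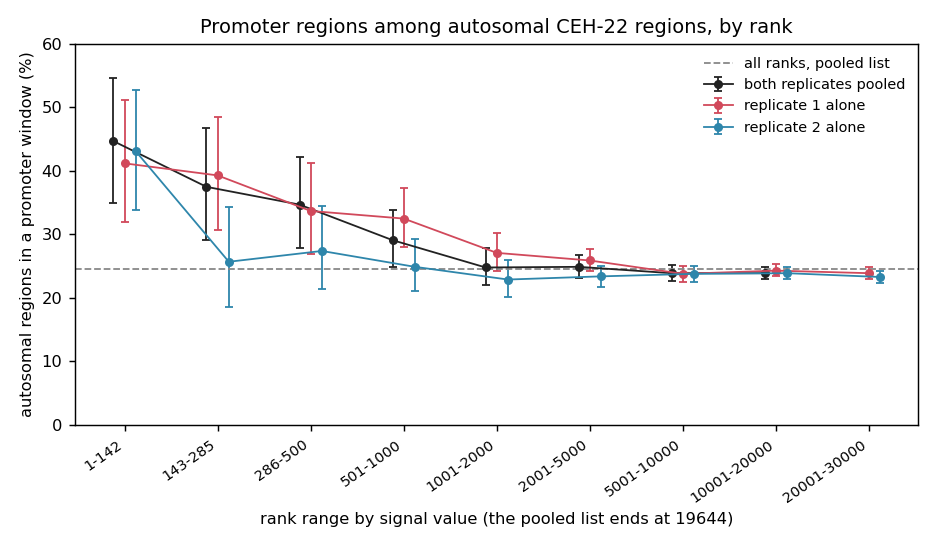
Share of autosomal regions whose summit lies in a promoter window (y axis, percent) by rank range of the signal value (x axis), for the pooled list and each replicate, with 95% Wilson intervals as bars; the dashed line is the pooled list as a whole. The pooled share is 44.7% in the first range and 23.9% in the last, and replicate 2 drops to 25.7% in the second range.

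At the top of the list stood genes of varied function. T09B4.3, a gene with no functional name in the annotation, had the strongest promoter region, 48 bp upstream of its 5' end (I, 6175033 to 6175193). Its signal value was 73.8 in replicate 1 and 77.6 in replicate 2, with 154 in the pooled list, and it ranked 3 and 6 in the replicates. The region 74 bp upstream of atx-2, which encodes the RNA-binding protein ataxin-2, had 49.5 in replicate 1 and 71.1 in replicate 2. The region 64 bp upstream of tasp-1, a taspase gene, had 33.9 in replicate 1 and 54.5 in replicate 2. These were the 3 strongest promoter regions in the pooled list, and all 3 stood among the 20 strongest regions of both replicates. Both atx-2 and tasp-1 have a partner gene across the same interval, ecps-1 at 764 bp and K01G5.10 at 721 bp.

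Genes of chromatin and RNA regulators were among the 25 strongest. The region 429 bp upstream of sor-1, which acts in Polycomb-like silencing of Hox genes, had 34.6 in replicate 1 and 46.1 in replicate 2. hil-7, a linker histone gene, had 24.3 and 37.8 in replicates 1 and 2, with the summit 81 bp upstream. A region 623 bp upstream of din-1 (II, 11634060 to 11634403), which encodes a corepressor that binds the nuclear receptor DAF-12, had 18.4 in replicate 1 and 52 in replicate 2. The sor-1 and hil-7 regions ranked within the first 70 in both replicates, whereas din-1 ranked 158 in replicate 1 and 15 in replicate 2. hmg-1.1, a gene for a high mobility group chromatin protein (region at II, 14250211 to 14250554), was also uneven, at 10.7 in replicate 1 (rank 789) and 37.2 in replicate 2 (rank 48). One region (I, 9988794 to 9989137) lay in the promoter windows of the core histone genes his-67 and his-68 and the Argonaute gene alg-5, with 22.5 in replicate 1 and 29.1 in replicate 2 and rank 91 in both. plrg-1, which encodes a spliceosome component, had 19.8 in replicate 1 and 26.7 in replicate 2.

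Genes of translation also had strong regions, with pooled ranks of 42 for rpl-3, 43 for rpl-35, 57 for rps-1 and 96 for iff-2. rpl-3, a ribosomal protein gene of the large subunit, had 26.3 in replicate 1 and 33.8 in replicate 2, and rpl-35 had 26.9 and 29.3 in the same order. The ribosomal protein gene rps-1 shared a region with ifet-1, whose product represses translation by binding eIF4E, at 26.6 in replicate 1 and 26.1 in replicate 2. iff-2, which encodes eIF5A, had 25.8 in replicate 1 and 19.6 in replicate 2, with the summit 64 bp upstream. All 4 regions were among the 60 strongest of replicate 1, and their ranks in replicate 2 were 62, 83, 132 and 423.

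The remaining regions among the 25 strongest were spread over signalling, protein turnover and transport genes and genes without a described role here. egl-30, a gene for the alpha subunit of the G protein Gq, and its neighbour C53H9.4 shared a region (I, 1835478 to 1835821) with 19.8 in replicate 1 and 33.7 in replicate 2. mig-38, named for cell migration, had 30.4 in replicate 1 and 32.6 in replicate 2. The signal values of ubc-25, a ubiquitin-conjugating enzyme gene, were 24.8 in replicate 1 and 22.9 in replicate 2. unc-14, needed for axon growth and transport, had 24.3 and 29.3 in replicates 1 and 2. The pooled values of the other regions among these 25, at otub-2, phg-1, K05C4.7, K04H4.5, the dnj-29, ndua-2 and fld-1 cluster, and the B0495.9 and sre-1 pair, lay between 52.1 and 60. Of those, B0495.9 was the most uneven, with rank 424 in replicate 1 and rank 38 in replicate 2. Besides ceh-22, the 2 remaining regions of the 25 lay beside short non-coding RNA genes, egg-5 next to the spliced leader RNA gene sls-2.4 and sre-23 next to the small nucleolar RNA gene ZK265.10.

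The gene for CEH-22 had a promoter region of its own. Its summit fell in an untranslated exon, 34 bp past the annotated start (V, 10671780 to 10672123), with a signal value of 27.7 in replicate 1 and 19.1 in replicate 2. It ranked 37 in replicate 1, 486 in replicate 2 and 73 in the pooled list. A weaker region of ceh-22, 672 bp upstream, ranked 9664. The transgene adds copies of sequence encoding CEH-22, so extra copies and binding cannot be told apart there.

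Between replicates, the thresholded promoter peaks were found again but not in the same order. Of the 84, 82 had a summit within 200 bp in the replicate 1 list and 84 in the replicate 2 list. Over all 285 thresholded peaks these counts were 279 and 283. The thresholded list was itself made by reproducibility between these replicates, so finding its peaks again was built into the selection. Over all members, 37.9% had a match in both lists (95% Wilson interval 36.4 to 39.5), against 34.1% of other autosomal regions (33.3 to 35) and 35.4% of all pooled regions. A match in neither list was found for 3.19% of members, all of them below the threshold, and for 3.4% of other autosomal regions. The 2 thresholded peaks with no match in replicate 1 were those of gei-4 and of unc-60 with F53E2.2. unc-60 encodes the actin-severing protein cofilin. Their values in replicate 2 were 31.5 and 31.3.

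The strongest 285 regions of each replicate gave a stricter view. Over all members 0.919% had a match among them in both replicates, beside 0.596% of all pooled regions. Of the 84 thresholded members, 35 did (41.7%, 95% Wilson interval 31.7 to 52.3), beside 40 of 122 at other autosomal peaks (32.8%, 25.1 to 41.5). A further 18 were among the strongest of replicate 1 only, 21 of replicate 2 only, and 10 of neither. The single member below the threshold with matches in both was a region of K04H4.5 whose match belonged to the stronger K04H4.5 peak beside it. Spearman's rho between the replicates' values was 0.19 over the 82 matched promoter peaks and 0.11 over 1404 weaker promoter regions. It was -0.0643 over the peaks matched in both lists (97.5%) of the 122 thresholded peaks elsewhere on the autosomes. These points share 1 pair of libraries and a pooled selection, so rho is a description.

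Single peaks showed how far the replicates could part. Of the 84, 7 ranked beyond 1000 in replicate 1 and 7 beyond 1000 in replicate 2. The T28D9.11 and T28D9.1 region had 3.92 in replicate 1, at rank 14325, and 28.2 in replicate 2, at rank 102. ncx-2, one of the genes with an NK-2 site, had 6.08 in replicate 1 and 26 in replicate 2. usp-4, a ubiquitin protease gene, went the other way, with 27.1 in replicate 1 (rank 42) and 15.3 in replicate 2 (rank 1441).

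**Figure D2:**
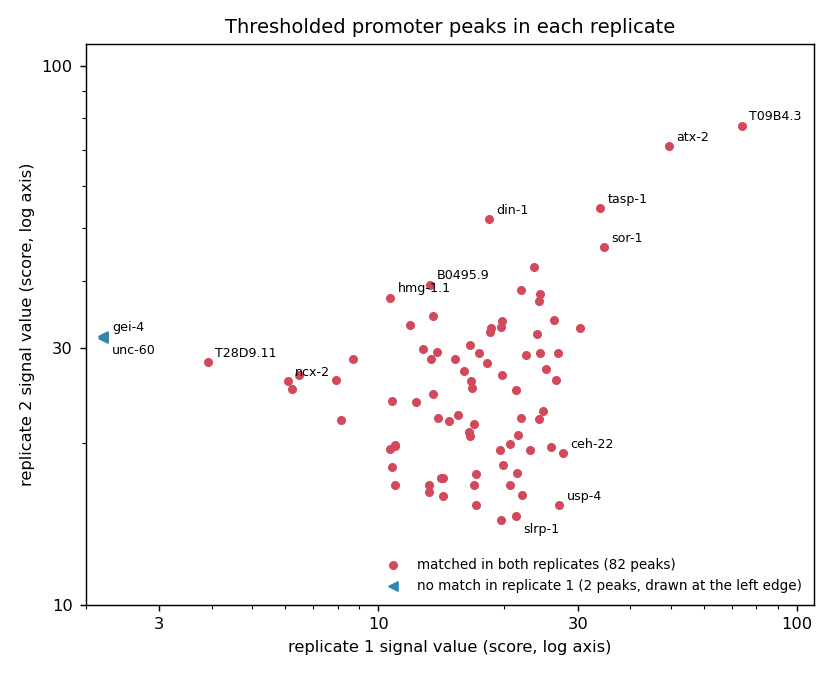
Signal value of the 84 thresholded promoter peaks in replicate 1 (x axis) and replicate 2 (y axis), both log axes, 1 point per peak with some named by the nearest gene; triangles at the left edge are the 2 peaks without a match in replicate 1. T09B4.3, atx-2 and tasp-1 are high in both, T28D9.11 is at 3.92 and 28.2, and most of the others form a cloud with little shared order.

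Summits of the thresholded peaks crowded just upstream of the 5' end. They lay upstream in 78 of 84 cases (92.9%), against 79.9% of the 3832 other promoter regions. The last 200 bp before the 5' end held 32 of them (38.1%, 95% Wilson interval 28.4 to 48.8), against 21% of the others (19.8 to 22.4). At or downstream of the 5' end lay 6 (7.14%, 3.31 to 14.7), against 20.1% (18.8 to 21.4). Besides ceh-22 these were the regions of mdt-26 at 109 bp, T28D9.11 at 80 bp, T22C1.6 at 47 bp, Y18D10A.4 at 145 bp and R02D5.24 at 25 bp. The median distances, 267 bp and 293 bp upstream, were alike.

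Read the other way, the share of members that were thresholded depended on position. It was 4.26% (18 of 423) in the 100 bp before the 5' end and 3.37% (14 of 415) in the next 100 bp upstream. It was 1.08% in the first 100 bp downstream and 0.493% (2 of 406) in the second. Close to 5' ends stood egl-30 at 11 bp, gei-4 at 26 bp, spe-48 at 32 bp and ears-2 at 38 bp upstream. At the edges of the window, 6 of 240 regions in the last 100 bp inside the upstream limit were thresholded and 4 of 266 in the first 100 bp outside, with median signal values of 11.9 and 12.4. At the downstream limit these were 2 of 402 inside and 2 of 281 outside, with medians of 12.0 and 11.8.

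**Figure D3:**
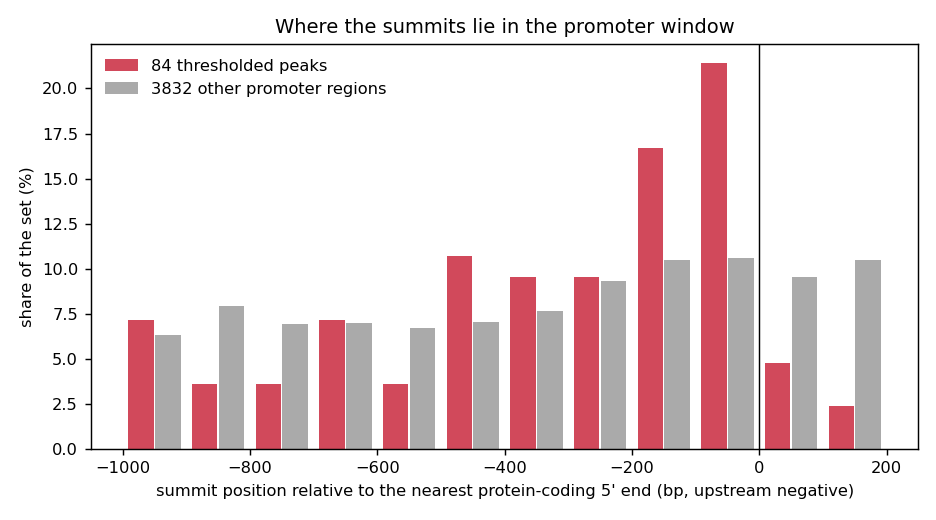
Share of the 84 thresholded promoter peaks and of the 3832 other promoter regions (y axis, percent of each set) in 100 bp bins of the summit's position relative to the nearest protein-coding 5' end (x axis, bp). The 2 bins just upstream hold 21.4% and 16.7% of the thresholded peaks and 10.6% and 10.5% of the others, and the bins downstream hold fewer of the thresholded peaks.

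The place of the summit in the annotation followed the same line. Intergenic DNA held 71 of the 84 thresholded summits (84.5%, 95% Wilson interval 75.3 to 90.7), against 53.2% of the other promoter regions. Introns of any gene held 7, coding exons 4 (4.76%, against 24%) and untranslated exons 2 (2.38%, against 8.85%). By chromosome, 20 of the 84 were on I, 19 on II, 17 on III, 17 on IV and 11 on V. Chromosome V thus held 13.1% of the thresholded members (7.47 to 21.9) and 24% of the others (22.7 to 25.4). Outside promoters it held 18% of the thresholded autosomal peaks (12.2 to 25.8) and 22.7% of the weaker autosomal regions (21.9 to 23.4).

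Many of the strong promoter regions lay between genes transcribed in opposite directions. A divergent pair, here genes on both strands whose promoter windows hold the same summit, was found at 27 of the 84 thresholded peaks (32.1%, 95% Wilson interval 23.1 to 42.7). It was found at 578 of the 3832 others (15.1%, 14 to 16.3). The share was 31% and 33.3% of promoter regions in the first 2 rank ranges and 12.7% beyond rank 10000. Among the strongest 285 regions of each replicate it was 31% in replicate 1 and 27.4% in replicate 2, against 14.5% and 13.2% of the weaker regions. Base composition moved with it, and within windows of 45 to 50% GC the shares were 36% (of 25) and 15.3% (of 489).

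The pairs included histone genes facing each other and many genes of unlike function. The summit lay upstream of both genes in 25 of 27 thresholded pairs and in 68.9% of the 578 others. The interval between the 5' ends had a median of 528 bp at the thresholded pairs (92 to 1482) and 599 bp at 576 of the others (6 to 1895), and the summit lay a median of 115 bp and 164 bp from its midpoint. The shortest belonged to uncp-18 and ears-2, at 92 bp. In the interval of 369 bp between his-68 and his-67 the summit was 18 bp from the midpoint. htz-1, the gene for the histone variant H2A.Z, and wapl-1, a cohesin release factor gene, are 476 bp apart with the summit 24 bp from the midpoint. In contrast, the summit at iff-2 was 64 bp from iff-2 and 871 bp from its partner F54C9.14. The longest interval, 1482 bp, lay between klc-1, a kinesin light chain gene, and let-70, a ubiquitin-conjugating enzyme gene, with the summit 63 bp from the midpoint.

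Windows around strong promoter summits were rich in GC. Over 201 bp the GC content of the thresholded members had a median of 49.0% (mean 49.0 ± 5.68 SD over 84 windows), against 38.8% in the other members. The thresholded peaks outside promoters were like them, at 49.3%, and windows of the same length centred 100 bp upstream of all 17242 autosomal 5' ends had a mean of 33.3%. The highest was the gsa-1 window at 62.7%, upstream of the gene for the G protein alpha subunit Gs. The lowest was that between idhg-1 and mlcd-1 at 36.3%. By rank, mean GC was 48.1% and 49.9% in the first 2 ranges of the pooled list and 37.9% in the last. Whether base composition affects signal here was not tested.

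**Figure D4:**
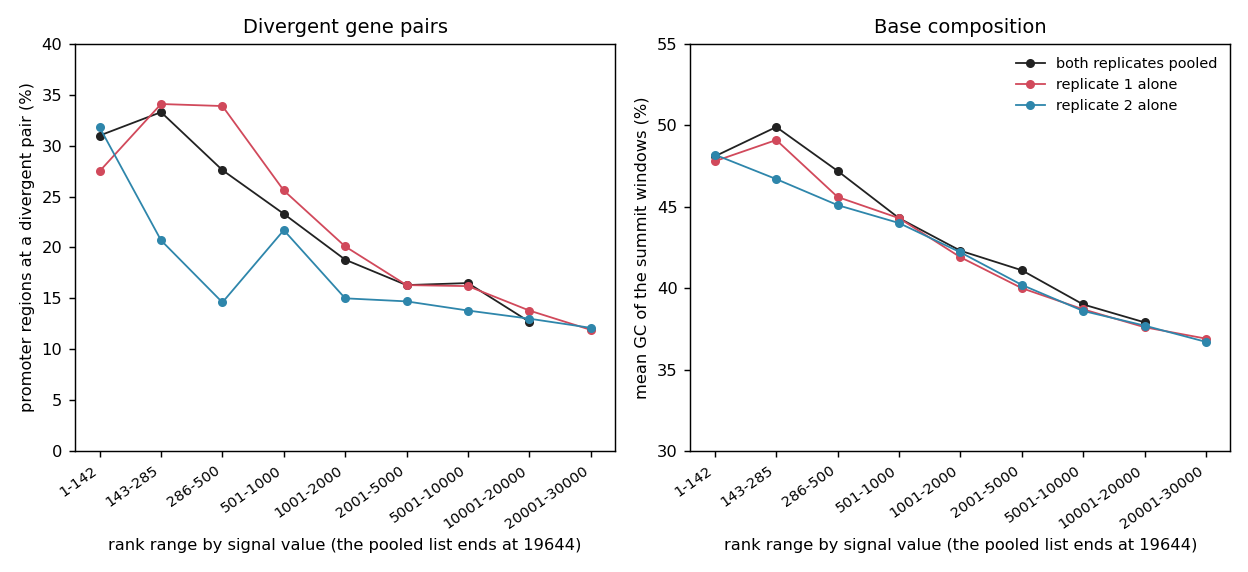
Share of promoter regions at a divergent gene pair (left, percent) and mean GC content of their 201 bp summit windows (right, percent; the axis starts at 30) by rank range, for the pooled list and each replicate. Both are lower at the weak end of each list, and replicate 2 has a smaller share of divergent pairs than replicate 1 at ranks 143 to 500.

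Without regard to GC content, the shares of NK-2 sites under strong and weak promoter regions lay close together, within a wide interval. They were 5.95% of the 84 (95% Wilson interval 2.57 to 13.2) and 5.32% of the others (4.66 to 6.08), against 4.03% of all autosomal 5' end windows. At the thresholded peaks outside promoters it was 17.2% of 122 (11.5 to 24.9), while weaker regions outside promoters had 6.13%. With the strongest regions of 1 library, the share at promoters was 3.57% (3 of 84) in replicate 1 and 6.85% in replicate 2, and outside promoters 17.6% in replicate 1 and 10.6% (15 of 142) in replicate 2. The share of NK-2 sites differed with GC, at 5.59% of other members under 35% GC and 1.79% from 55% GC. At 45 to 50% GC a site was in 3 of 25 thresholded members and 4.7% of the others. At 50 to 55% GC it was in 0 of 25 and 2.22%. With so few windows, these values do not settle whether strong and weak promoter regions differ. The reversed letters, GTGAACT or GTGAATT, which served as a control word, were in 2.38% of the 84 and 6.03% of the others. Among other words, TGATAA, the letters read by GATA factors, was in 5.95% and 15.7%, TATAAA in 8.33% and 17.8%, TTTCAG, the usual splice acceptor, in 9.52% and 33.3%, and a run of 8 T in 5.95% and 15.3%. Among the other members TTTCAG was in 36.7% of windows under 35% GC and 7.14% of those from 55% GC, and TGATAA in 21.9% and 5.36%, so these shares also move with composition. In the strongest promoter regions of replicate 1 alone TTTCAG was in 16.7% and the T run in 1.19%, and in those of replicate 2 alone in 15.1% and 6.85%. CACGTG, the E-box, was in 3.57% and 4.75%.

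CCCGCCC, a word chosen with earlier results of these data known, was more frequent under the strong promoter peaks. Other words, given below, differed more. It was in 10 of the 84 windows (11.9%, 95% Wilson interval 6.6 to 20.5), against 1.41% of other members, 1.64% of the thresholded peaks outside promoters and 1.66% of all 5' end windows. The genes were sor-1, hil-7, B0495.9 with sre-1, spe-48 with Y51F10.11, npp-8, T02E1.2, R107.5 with cls-2, his-60 with his-59, T28D9.11 with T28D9.1, and enpl-1 with imp-2. npp-8 encodes a nuclear pore protein, cls-2 a microtubule-binding protein of the CLASP family and enpl-1 an endoplasmic reticulum chaperone. The word lay 13 bp from the summit at npp-8 and 90 bp from it at his-60. It was in 9.52% of the strongest promoter regions of replicate 1 and 13.7% of those of replicate 2, against 1.32% and 1.31% of the weaker ones. In windows of 45 to 50% GC it was in 6 of 25 and in 11 of 489 (24% and 2.25%), and at 50 to 55% GC in 3 of 25 and 14 of 180 (12% and 7.78%). At 40 to 45% GC it was in 0 of 15 and 1.67%, and from 55% GC in 1 of 13 (7.69%) and 5.36%.

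Further words were found by counting all words of 7 letters after the sequences had been seen, so they are a description of these windows only. The largest difference in share was that of GAGGAGA, in 20 of the 84 windows (23.8%, 95% Wilson interval 16 to 33.9), against 4.72% of the other members and 13.1% of thresholded peaks outside promoters (8.24 to 20.2). AGTGTGC had 19% against 3.08%, and 9.84% at thresholded peaks outside promoters. Other words thus differed more than CTCCGCC, which resembles CCCGCCC and was chosen after its values were seen. It was in 15 of the 84 (17.9%, 11.1 to 27.4), against 3.91% of the others, 4.92% of thresholded peaks outside promoters and 3.68% of all 5' end windows. Only 1 window held both CCCGCCC and this word, so 24 of 84 held 1 word or the other. It was in 17.9% of the strongest promoter regions of replicate 1 and 20.5% of those of replicate 2. At 45 to 50% GC it was in 2 of 25 windows and 6.13% of weaker ones, and at 50 to 55% GC in 7 of 25 (28%) and 11.1%. CTCTCTC was in 20 of the 84 (23.8%, 16 to 33.9), against 7.05% of the others, but in 40.2% of the thresholded peaks outside promoters (31.9 to 49). Words chosen for their difference cannot show which of them is particular to promoters.

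A short non-coding RNA gene lay within 200 bp of 12 of the 84 summits (14.3%, 95% Wilson interval 8.37 to 23.3), against 1.72% of the other members and 19.7% of thresholded peaks outside promoters. They were 7 small nucleolar RNA genes, 3 small nuclear RNA genes and 2 tRNA genes. Besides egg-5 and sre-23, they adjoined H41C03.3, W09G10.9, C41C4.9 with chst-1, T02E1.2, K02C4.2, F55A11.11, gst-27, wrt-3, F38E11.9 and Y7A9D.1. The part of the non-coding genes in these signals was not tested. The thresholded regions of sre-23 and of wrt-3, a hedgehog-related gene, were of this kind.

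The gene classes with promoter regions differed. The pooled list holds background as well as peaks, so a region at a gene does not by itself show binding. In all 4179 of 17242 autosomal protein-coding genes (24.2%) had a promoter region and 115 (0.667%) a thresholded one. Several classes of core cell functions stood above that share, and others did not. A region stood at 49 of 79 genes for ribosomal proteins (62%, 95% Wilson interval 51 to 71.9), at 23 of 36 genes for translation factors (63.9%), at 18 of 33 proteasome genes (54.5%) and at 17 of 34 splicing genes (50%). Respiratory chain genes had 13 of 28 and chaperones 22 of 55 (40%, 28.1 to 53.2). The intervals of V-ATPase genes (41.2%, 21.6 to 64), mitochondrial ribosomal protein genes (30%, 20.5 to 41.5) and histone genes (22.1%, 13.8 to 33.3) included 24.2%. Chemosensory receptor genes stood below, with 160 of 1267 (12.6%, 10.9 to 14.6). The nuclear hormone receptor, F-box and C-type lectin families lay between 20.3% and 21%.

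**Figure D5:**
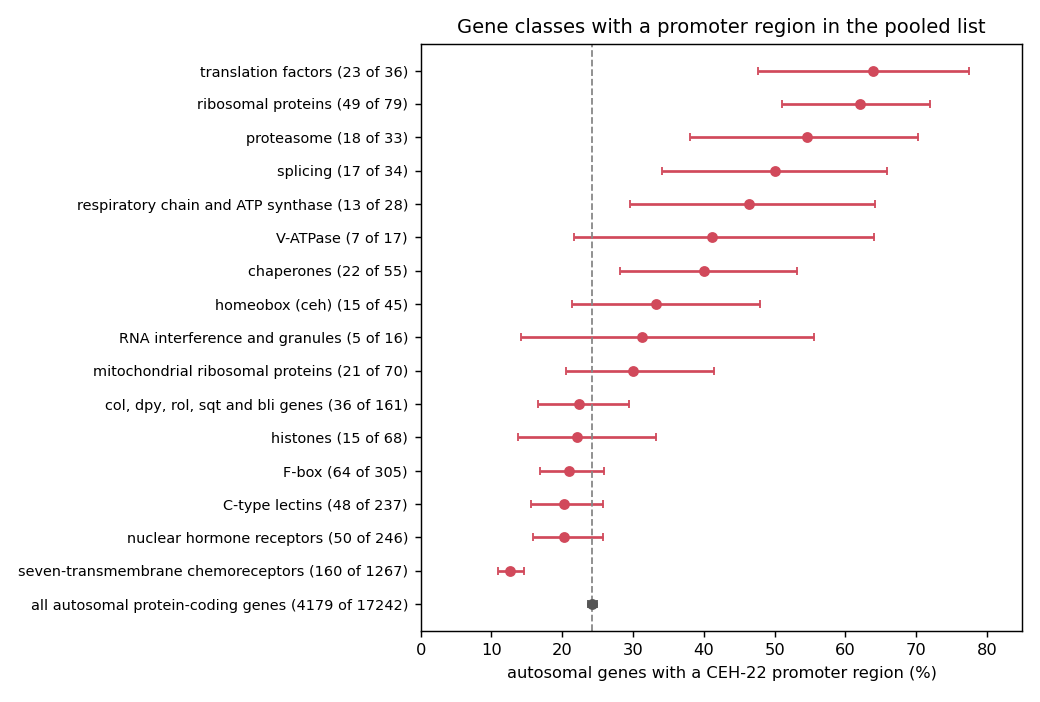
Percent of the autosomal genes of each class with a promoter region in the pooled list (x axis) with 95% Wilson intervals, classes in order of their share and all autosomal protein-coding genes in the last row and as the dashed line. Translation factors and ribosomal proteins are at 63.9% and 62%, all genes at 24.2% and chemoreceptors at 12.6%.

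Thresholded peaks within these classes were few, as they were over all autosomal genes, at 0.667%. They stood at 4 ribosomal protein genes (5.06%, 95% Wilson interval 1.99 to 12.3), where rpl-20 at rank 203 joined rpl-3, rpl-35 and rps-1. The chaperone class had 4 (7.27%, 2.86 to 17.3), the DnaJ genes dnj-29 and dnj-13, the mitochondrial chaperonin gene hsp-60 and the cytosolic chaperonin gene cct-7. The 4 histone genes with one, his-67, his-68, his-59 and his-60, shared 2 regions, so 4 genes here are 2 peaks. cox-5A, for a cytochrome oxidase subunit, had 16.6 in replicate 1 and 20.6 in replicate 2. The proteasome, splicing and mitochondrial ribosomal classes had none, with upper Wilson limits of 10.4%, 10.2% and 5.2%. The 161 genes with collagen-type names had none either (upper limit 2.33%). All of these limits lie above 0.667%, so nothing is read from the zeros. Of the collagen-type names the strongest, dpy-26 at rank 1400 and dpy-27 at rank 1482, encode subunits of the dosage compensation complex and not collagens. Among genes named col, 26 of 129 had a region, the strongest at col-38 with rank 2748.

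Most pharyngeal muscle genes of the list had a promoter region. The median rank of a gene's strongest region was 2287 over this list and 8821 over all autosomal genes with a region. The median signal values were 17.8 and 12.4. Such ranks were not particular to this list. The median was 1968 for body wall muscle, 2538 for actins and regulators, 2137 for histones and 2425 for chaperones. It was 12342 for the intestine, 11321 for the germ line and 15644 for neurons. Of 9 autosomal genes of the pharyngeal muscle list 7, ceh-22 among them, had a region (77.8%, 95% Wilson interval 45.3 to 93.7). The share was 24.2% over all autosomal protein-coding genes, but 60% for body wall muscle and 62% for ribosomal proteins, both within that interval. Only that of ceh-22 was thresholded. myo-5, a pharyngeal myosin gene, had 8.53 in replicate 1 and 18.4 in replicate 2, at pooled rank 516, with the summit 934 bp upstream. The troponin C gene tnc-2 had 5.43 in replicate 1 and 11.7 in replicate 2 (pooled rank 1845), and the troponin I gene tni-4 had 6.78 and 11.1 in the same order (pooled rank 2287). myo-1 ranked 6636, tnt-4 ranked 17619 and the muscarinic receptor gene gar-3 ranked 19549, near the end of the list. Of these 6 genes, myo-5, tnc-2, tni-4 and tnt-4 were matched in both replicates, and myo-1 and gar-3 in replicate 1 only.

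Genes of other tissues gave a mixed picture with small numbers, beside 24.2% over all autosomal protein-coding genes. Among pharyngeal transcription factors 3 of 9 had a region, and pha-4, the organ identity gene of the pharynx, ranked 1765 with 8.82 in replicate 1 and 10.7 in replicate 2. Of the body wall muscle genes 6 of 10 had one (60%, 95% Wilson interval 31.3 to 83.2). They were led by unc-89, a giant muscle protein gene, at 19.5 in replicate 1 with no match in replicate 2, and unc-54, the main body wall myosin gene, at 4.09 in replicate 1 and 19.4 in replicate 2. The actin gene act-3 ranked 522 (7.51 in replicate 1 and 15.8 in replicate 2). The intestine had 4 of 7, led by act-5 at rank 9312, the germ line 3 of 9, led by mex-1 at rank 4962, and the neurons 2 of 12, led by ric-4 at rank 14065. None of 6 epidermal genes had a region, which allows a share of up to 39% by the Wilson limit. Without ceh-22, an alternative chosen after the values were seen, the pharyngeal muscle list had 6 of 8 (75%, 40.9 to 92.9), an interval that overlaps that of the neurons (4.7 to 44.8). With so few genes a list, no order of tissues is read from these shares.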

How the data were processed

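CEH-22 ChIP-seq peak lists of 2 biological replicates of late embryos were used on build ce11; the ce10 lists were not used. Per the deposited file listing, each replicate list and the pooled list came from alignments with a control, and the thresholded list from a reproducibility analysis (IDR) of ranked lists. Which aligner and peak caller made them is not given in the sources used here, and the deposited regions were taken as they stand. The deposited signal value is a score by the authors' caller on a scale not stated. The thresholded peaks equalled the 285 strongest pooled regions. Read depth is unknown.

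Gene positions came from Ensembl release 115 and sequence from RefSeq WBcel235. Distances were taken from the upstream boundary of each annotated gene. Summits within 200 bp were matched between lists, taking the strongest. Shares have 95% Wilson intervals; no test was run, since there was 1 group. Python 3.11.15, pandas 2.3.3, numpy 2.4.6, scipy 1.17.1 and matplotlib 3.10.9 were used. The assignment of summits to genes, their distances and the matching between lists were tested on simulated data. The counting steps were not part of that test. Motifs were counted within 100 bp of the summit, on both strands.

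Members, gene lists, motifs and alternatives were chosen with earlier results of these data known. Named genes were those of the 25 strongest members, up to 3 of each class or list with a thresholded member, the strongest region of each tissue list, and ceh-22. Other genes named for divergent pairs, position, GC extremes, replicate differences, non-coding neighbours or the motif, rpl-20, dnj-13, the dpy and col genes and further list members were named after their values were seen, as were the counts of 7-letter words other than CCCGCCC and the GC ranges. The list symbols tmd-1 and opt-2 had no match in the annotation.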

Additional observations from a re-analysis of the deposited data

How the results depend on the processing

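Of the recomputed values, 50 kept their place and 23 moved. A share counted as moved when it fell outside the Wilson interval of the main setting. A median counted as moved when it shifted by more than the SD between the 2 replicates. That SD was 0.176 for GC percent and 55.5 bp for the distance, so small shifts in GC counted. No value changed sign, but shares, GC content and relative signal cannot be negative, so only the distance could have done so. With a promoter window of 500 bp upstream to 100 bp downstream, 2.77% of members were thresholded, 41.5% matched in both replicates, the median signal was 1.03 times that of the whole list, the median distance was -173 bp and the median GC 48.3%. With 2000 bp upstream the distance was -431 bp and the GC 49.3%; with the 5' ends of all transcripts the GC was 49.3%. Matches in both lists were 25.4% with summits within 100 bp and 45.3% with any overlap. With 2 times as many strongest regions, 61.9% of thresholded members were among those of both replicates. With the cutoff moved up to the stronger part of the thresholded list, ranks 1 to 142, 1.07% of members passed it, with a GC of 47.5%. Without regions near short non-coding RNA genes the distance was -200 bp and the GC 48.3%. NK-2 sites within 50 bp of the summit were in 2.38%. With 1 replicate left out, the strongest 285 of a list of 30000 gave 1.26% to 1.41%, the share among the strongest 63.1% to 66.7%, the distance -288 to -209 bp and the GC 47.8% to 48%. No paired analysis was possible because there was 1 group. The cause of each move was not tested, except that a window fixes the distances it allows and a list's length fixes its thresholded share. Only 2 replicates and unknown depth limit all values.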
